A study of Homo sapiens with 2 samples.

Results

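Cluster 0 of MDA-MB-453 cells was taken as the authors deposited it, as all cells with the value 0 in the cluster column of the cell table. It held 1383 of 5985 cells, 1100 of the 3163 cells of the cytokine-treated library and 283 of the 2822 cells of the vehicle library. MDA-MB-453 is an established human breast cancer line that the labels describe as triple-negative and wild-type in genotype. One culture received IL1β and TNFα at 10 ng/ml for 24 h and the other received water as vehicle for 24 h, both in DMEM with fetal bovine serum, and each gave 1 droplet library in which transcript 3′ ends were counted with unique molecular identifiers (UMIs). The study concerned tryptophan breakdown by the enzyme TDO2 in such cells and how inflammatory cytokines that activate NF-κB act on it. Cluster 0 was set against the other 5 clusters within each library, and then its cytokine-treated cells were set against its vehicle cells.

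How the clusters were made is not given in the sources used here, and they are taken to rest on the expression of these same cells, so ratios between clusters are descriptions and carry no test. Each condition was 1 library, cells are not replicates, and no difference between conditions has a replicate check. Cluster 0 summed to 23849301 UMIs in the cytokine-treated library (12397 to 38262 per cell, median 21165.5) and to 5795849 UMIs in the vehicle library (10769 to 31981 per cell, median 20277). The other clusters had medians of 21674 UMIs per cell with cytokines and 20238 with vehicle. Levels are given as counts per 1000000 UMIs (CPM) of the summed cells, log2 ratios have exact 95% intervals in brackets, and all intervals cover counting error only. Median mitochondrial shares of cluster 0 were 6.22% with cytokines and 5.71% with vehicle, against 6.65% and 6.35% in the other clusters of the same libraries. Markers of other cell types were near 0 in cluster 0, where the highest of each list were 0.345 CPM for CD8A (lymphocytes), 1.68 for CD68 (myeloid cells), 3.86 for TP63 (basal epithelium) and 0.518 for HBA1 (erythroid cells), while COL1A1 of the fibroblast list reached 19.4 CPM. Only 8 barcodes occurred in both libraries, and 2 cytokine-treated and 1 vehicle cell of cluster 0 carried such a barcode. Without those cells S100A9 was at 9064 CPM in cytokine-treated and 20.9 CPM in vehicle cells of cluster 0.

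As background, MDA-MB-453 is a luminal line with androgen receptor activity that makes apocrine secretory proteins. IL1β and TNFα signal through adaptor proteins to the IKK complex, which frees NF-κB to induce acute phase proteins, chemokines and its own inhibitors. Tryptophan is opened by TDO2 or by IDO1, and KMO and KYNU act further down the kynurenine pathway, whose product kynurenine is a ligand of the aryl hydrocarbon receptor (AhR). S100A8 and S100A9 are calcium-binding proteins that pair to form calprotectin, an antimicrobial and inflammatory complex.

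The genes that set cluster 0 apart at the highest level were S100A8 and S100A9. S100A9 was at 9061 CPM in cytokine-treated cluster 0 cells, against 2447 CPM in the other cytokine-treated cells (log2 ratio 1.89 [1.88, 1.90]), and at 20.9 CPM in vehicle cluster 0 cells, against 4.94 CPM in the other vehicle cells (2.08 [1.75, 2.39]). S100A8 was at 7052 against 1536 CPM with cytokines (2.20 [2.19, 2.21]) and at 6.04 against 1.04 CPM with vehicle (2.54 [1.88, 3.17]). In the cytokine-treated library cluster 0 had the highest level of both genes among the 6 clusters, with cluster 5 next at 4626 CPM for S100A9 and 3294 CPM for S100A8. In the vehicle library cluster 3, at 20.1 CPM, was level with cluster 0 for S100A9, and the other clusters were at 2.54 CPM or less. However, 1 cell outside cluster 0 held 109 of the 261 S100A9 UMIs of the other vehicle cells. Only cluster 3 had enough S100A9 UMIs to contain it, so the level of cluster 3 rested largely on that cell. After thinning each cell to 15000 UMIs, 12.4% of vehicle cluster 0 cells had an S100A9 UMI, against 2.33% of the other vehicle cells (15.2% against 3.23% before thinning). TDO2 was at 788 CPM in cytokine-treated cluster 0 cells, against 445 CPM in the other cytokine-treated cells (0.83 [0.80, 0.85]), and at 21.7 against 7.94 CPM with vehicle (1.45 [1.15, 1.74]). TDO2 too was highest in cluster 0 in both libraries, and cytokine-treated clusters 3 and 5 came closest at 685 and 663 CPM, while clusters 1 and 4 were at 260 and 293 CPM.

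The promoters of these 3 genes are shown. Each was higher in cluster 0 in both libraries, as was the marker gene CLIC3 described below, whose window was searched but is not printed. Each of the 3 was also far higher with cytokines than with vehicle, in cluster 0 and in the other clusters. Sequences are from RefSeq (GRCh38.p14) and run from 250 bases before to 50 bases after the RefSeq start, with each match of the C/EBP letters TTNNGNAA on either strand in capitals. The S100A9 (ENSG00000163220) window lies on the plus strand at chr1:153357604-153357903, that of S100A8 (ENSG00000143546) on the minus strand at chr1:153391024-153391323 and that of TDO2 (ENSG00000151790) on the plus strand at chr4:155903446-155903745.
S100A9: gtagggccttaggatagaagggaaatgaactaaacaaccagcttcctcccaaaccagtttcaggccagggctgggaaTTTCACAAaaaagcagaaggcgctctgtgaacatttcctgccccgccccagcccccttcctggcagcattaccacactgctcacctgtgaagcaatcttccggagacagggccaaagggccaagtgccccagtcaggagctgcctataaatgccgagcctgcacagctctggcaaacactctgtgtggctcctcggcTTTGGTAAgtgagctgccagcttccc
S100A8: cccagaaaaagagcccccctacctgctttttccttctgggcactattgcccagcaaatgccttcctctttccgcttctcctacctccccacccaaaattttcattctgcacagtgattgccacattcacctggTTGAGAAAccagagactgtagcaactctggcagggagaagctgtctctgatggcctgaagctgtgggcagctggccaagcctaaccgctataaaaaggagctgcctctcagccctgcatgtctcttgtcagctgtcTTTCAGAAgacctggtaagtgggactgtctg
TDO2: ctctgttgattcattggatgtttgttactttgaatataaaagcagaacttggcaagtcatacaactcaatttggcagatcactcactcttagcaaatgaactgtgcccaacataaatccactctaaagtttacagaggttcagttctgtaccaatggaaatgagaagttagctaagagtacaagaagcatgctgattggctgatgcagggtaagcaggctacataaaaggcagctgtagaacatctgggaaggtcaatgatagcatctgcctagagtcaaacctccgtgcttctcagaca
The S100A9 window held 2 matches, at -173 and 24 from the start, and the S100A8 window held 2, at -117 and 19. The TDO2 window held none and had 1 match of the AP-1 letters TGANTCA at -244. The CLIC3 window held no match of any motif searched. TTNNGNAA occurred in 36.8% and TGANTCA in 7.71% of 35116 RefSeq promoter windows of this length, no κB motif and no match of the STAT letters TTCNNNGAA was found in these windows, and a match is a description of letters, not a binding site.

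Within cytokine-treated cluster 0, S100A8 and S100A9 went together and TDO2 did not follow them. Over 1068 thinned cells Pearson's r between S100A8 and S100A9 was 0.89 (Spearman's rho 0.88), and between TDO2 and S100A9 it was -0.05 (rho -0.07). These cells share 1 library, and the values are descriptions. S100A9 had a median of 110 UMIs per 15000 (quartiles 55 and 181, highest 968) and S100A8 a median of 67 (30 and 131, highest 970). TDO2 had a median of 6 UMIs (quartiles 1 and 17, highest 104). Levels of TDO2 were thus very unequal. At least 1 TDO2 UMI was found in 78.4% of cytokine-treated cluster 0 cells, against 63.1% of the other cytokine-treated cells (81.1% against 67.2% before thinning). All cells are of 1 line, so no cell type that lacks TDO2 gives a background share, and the part of free RNA in these shares was not tested. With vehicle the shares were 7.87% in cluster 0 and 4.05% in the other clusters (8.48% and 4.41% before thinning), and 24 of 283 vehicle cluster 0 cells held all 126 of its TDO2 UMIs.

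**Figure D1:**
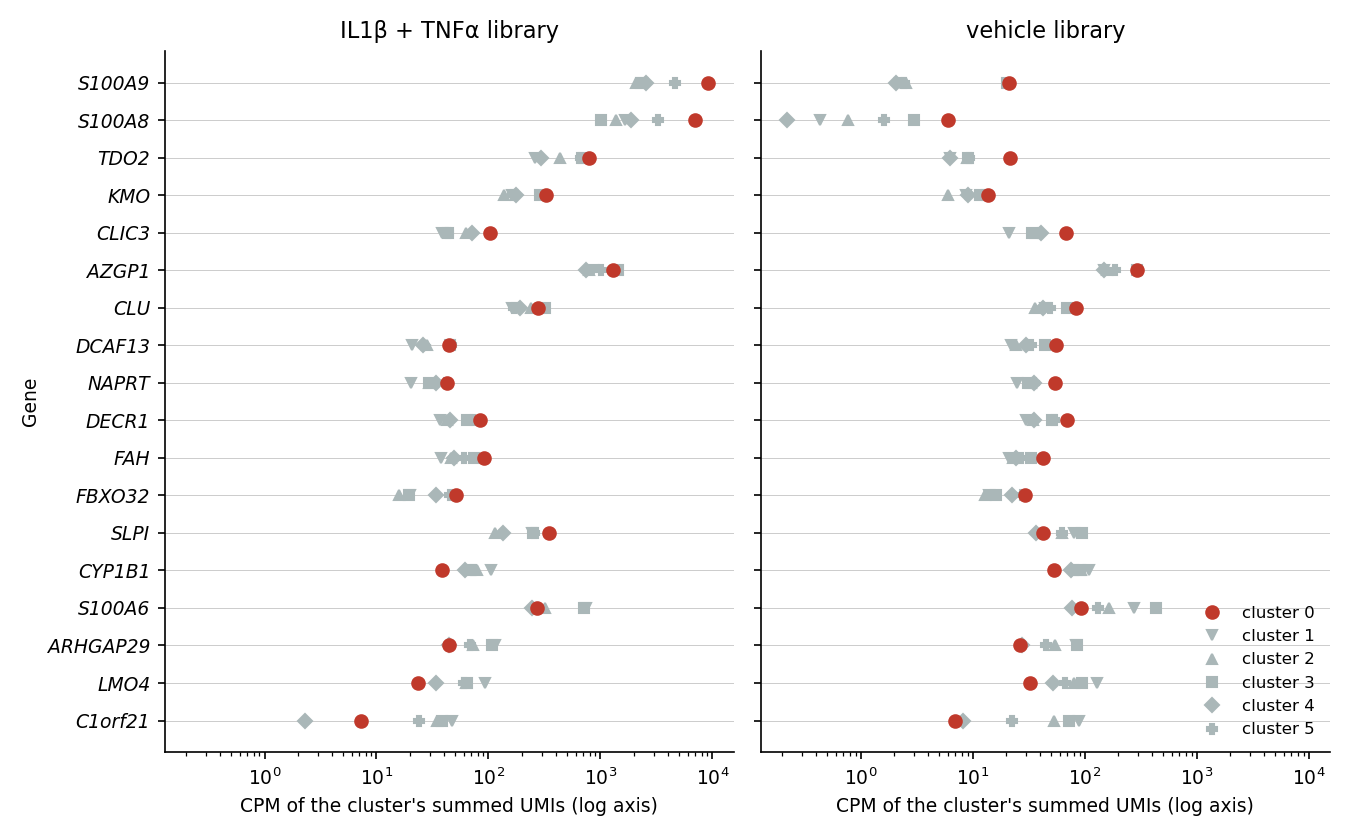
Level of 18 genes in each of the 6 clusters, in CPM of the cluster's summed UMIs on a log axis, with the cytokine-treated library on the left and the vehicle library on the right; red circles are cluster 0 and grey marks are clusters 1 to 5. S100A9, S100A8, TDO2 and CLIC3 were highest in cluster 0 in both libraries, and C1orf21 stood at 7.25 CPM in cytokine-treated and 6.90 CPM in vehicle cluster 0.

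The 5 genes taken as markers of the cluster held unequally in the 2 libraries. CLIC3 (ENSG00000169583, chromosome 9, 136994608 to 136996568 in GRCh38), a chloride intracellular channel protein, was at 103 CPM in cytokine-treated cluster 0 cells against 48.5 CPM in the others (log2 ratio 1.09) and at 68.0 against 34.0 CPM with vehicle, higher than in every other cluster of either library. A CLIC3 UMI was found in 61.1% of cytokine-treated cluster 0 cells, against 35.8% of the others, and in 52.1% against 31.7% with vehicle (67.4%, 44.3%, 57.2% and 38.4% before thinning). NAPRT, which feeds nicotinic acid into NAD synthesis, was at 42.6 against 27.5 CPM with cytokines and at 54.7 against 31.6 CPM with vehicle. DCAF13, a ribosome biogenesis factor, was at 44.1 against 31.8 CPM (0.47) and at 54.9 against 28.9 CPM (0.92). CLU, the secreted chaperone clusterin, was at 279 against 227 CPM (0.30) and at 83.7 against 45.6 CPM (0.87), and AZGP1, a secreted zinc-binding glycoprotein of apocrine cells, at 1285 against 1026 CPM (0.32) and at 295 against 178 CPM (0.72). All 5 markers were at least 1.5-fold higher in vehicle cluster 0, but only CLIC3 and NAPRT were in cytokine-treated cluster 0. Among G1 cells 3 of the 5 were past the limit with vehicle, where CLU had a log2 ratio of 0.40 and AZGP1 of 0.57. In the cytokine-treated library cluster 3 lay above cluster 0 for CLU (319 CPM), AZGP1 (1445 CPM) and DCAF13 (45.6 CPM).

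Over all genes, 107 of 8655 measured genes were at least 1.5-fold higher in cytokine-treated cluster 0 than in the other cytokine-treated cells (1.24%) and 317 were lower (3.66%), where measured means CPM 5 or more in at least 1 of the 2 sums and the interval had to lie on the same side of no difference. In the vehicle library 118 of 9123 measured genes were higher (1.29%) and 362 lower (3.97%). In vehicle cluster 0 CPM 5 is only 29.0 UMIs, against 119 UMIs in cytokine-treated cluster 0, so single low genes are less certain there. A total of 30 genes were higher in both libraries, which is 28.0% of the cytokine-treated and 25.4% of the vehicle list, and 114 were lower in both, 36.0% and 31.5% of those lists.

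Among the 12 genes with the highest ratio in both libraries, taken over genes at CPM 20 or more in both, were CLIC3, NAPRT, TDO2 and S100A9. Of the others, DECR1, an enzyme of mitochondrial fatty acid oxidation, was at 84.6 against 49.6 CPM with cytokines and at 69.0 against 38.7 CPM with vehicle. FAH, the last enzyme of tyrosine breakdown, was at 91.4 against 53.3 CPM and at 42.3 against 24.8 CPM. FBXO32, a ubiquitin ligase subunit known from muscle atrophy, was at 51.4 against 22.5 CPM and at 29.2 against 17.3 CPM, and B3GNT5, which extends the sugar chains of glycolipids, at 104 against 48.9 CPM and at 53.3 against 32.4 CPM. The zinc transporter SLC39A4, the ribosome biogenesis factor BOP1, the splicing factor PUF60 and the endosomal sorting subunit VPS28 completed these 12 genes, with log2 ratios of 0.57 to 0.61 with cytokines and of 0.62 to 0.78 with vehicle. Among G1 cells the vehicle ratios of FBXO32 (0.52), BOP1 (0.40) and VPS28 (0.53) were no longer past the limit, nor was that of VPS28 with cytokines (0.54).

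C1orf21 (ENSG00000116667, chromosome 1, 184387029 to 184629019 in GRCh38), a gene of unclear role, was low in cluster 0 and in cluster 4. It was at 7.25 CPM in cytokine-treated cluster 0 cells against 35.0 CPM in the others (-2.27 [-2.50, -2.04]) and at 6.90 against 52.0 CPM with vehicle (-2.91 [-3.40, -2.46]). Cluster 4 was as low, at 2.30 CPM with cytokines and 8.22 CPM with vehicle, and the other clusters were at 22.4 CPM or more. LMO4, a LIM-domain transcriptional cofactor, was at 23.4 against 69.2 CPM with cytokines (-1.56) and at 32.8 against 85.9 CPM with vehicle (-1.39). S100A6, another S100 calcium-binding protein, was at 273 against 575 CPM (-1.08) and at 92.1 against 209 CPM (-1.18), the opposite of S100A8 and S100A9. ARHGAP29, which turns off the GTPase RhoA, was at 44.5 against 93.5 CPM (-1.07) and at 26.6 against 59.3 CPM (-1.16). CDKN1A, the cell cycle inhibitor p21, was at 8.39 against 21.1 CPM (-1.33) and at 11.2 against 20.4 CPM (-0.86), but in G1 cells its ratio was -1.36 with cytokines and only -0.17 with vehicle.

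Of the 8 measured tryptophan and kynurenine genes, 2 were at least 1.5-fold higher in cluster 0 in each library, TDO2 and KMO, and none was lower. The list's median log2 ratio was 0.21 with cytokines and 0.28 with vehicle, beside -0.02 over all measured genes in each library. KMO, the kynurenine hydroxylase, was at 325 CPM in cytokine-treated cluster 0 cells against 200 CPM in the others (0.70 [0.65, 0.74]) and at 13.6 against 8.85 CPM with vehicle (0.62 [0.26, 0.97]). KYNU, the kynureninase, was at 77.8 against 65.8 CPM with cytokines and at 2.93 against 4.21 CPM with vehicle, the second on 17 UMIs. IDO1 had no UMI in cluster 0 of either library, where 3 UMIs would be 0.126 CPM with cytokines and 0.518 CPM with vehicle. The genes around the AhR went the other way, with 2 of 6 at least 1.5-fold lower and none higher in each library (median -0.42 in both). AHR itself was at 2.81 CPM in cytokine-treated cluster 0 cells against 8.26 CPM in the others (-1.56 [-1.95, -1.18]) and at 2.42 against 6.38 CPM with vehicle (-1.40 [-2.29, -0.64]). Its target CYP1B1, a monooxygenase, was at 38.2 against 82.7 CPM (-1.11) and at 53.7 against 91.9 CPM (-0.78), the lowest of the 6 clusters in both libraries. The target NQO1, a quinone reductase that NRF2 also induces, was at 1255 against 1003 CPM and at 838 against 659 CPM.

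Acute phase and antimicrobial genes were the list with the highest median in cytokine-treated cluster 0, with 10 of 13 measured members at least 1.5-fold higher, 1 lower and a median log2 ratio of 1.17. SAA1, an acute phase apolipoprotein, was at 280 CPM in cytokine-treated cluster 0 cells against 120 CPM in the others (1.23 [1.18, 1.28]), and its near-identical neighbour SAA2, with which it can share reads, at 23.9 against 9.64 CPM. LCN2, the iron-siderophore binding lipocalin, was at 69.3 against 30.8 CPM (1.17), CFB, complement factor B, at 92.6 against 55.0 CPM (0.75), and S100A7, psoriasin, at 41.3 against 10.2 CPM (2.02). The antiprotease PI3 was at 64.6 against 66.1 CPM. In vehicle cluster 0 only 3 members were measured, S100A8 and S100A9 above the other clusters and SLPI, a secreted leukocyte protease inhibitor, below them.

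**Figure D2:**
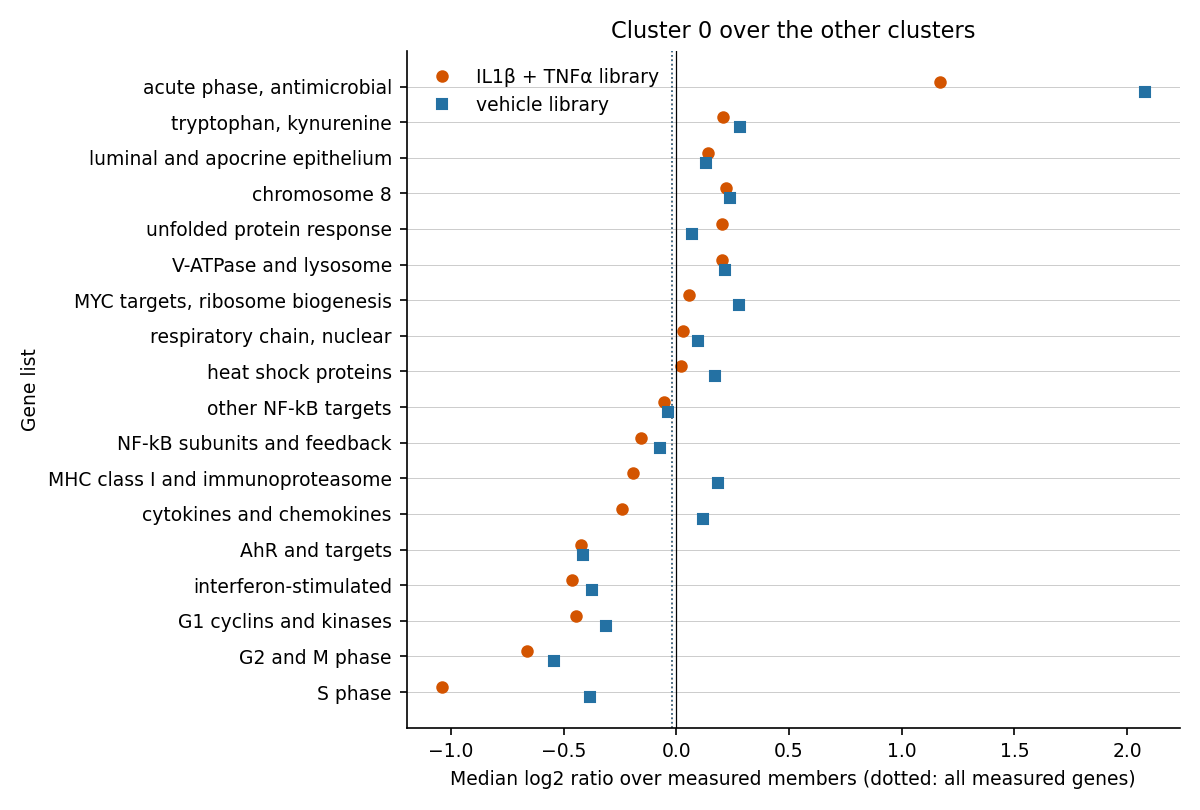
Median log2 ratio of cluster 0 over the other clusters for 18 gene lists, orange circles for the cytokine-treated and blue squares for the vehicle library, with the median of all measured genes dotted. The acute phase list stood at 1.17 with cytokines and 2.08 with vehicle (3 genes), and the S phase list at -1.04 and -0.39.

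Cytokine, chemokine and interferon-stimulated genes did not share this excess. Of 11 measured cytokines and chemokines, none was at least 1.5-fold higher in cytokine-treated cluster 0 and 4 were lower (median -0.24). LTB, lymphotoxin beta, was at 198 CPM in cytokine-treated cluster 0 cells against 313 CPM in the others (-0.66), CCL2, a monocyte chemokine, at 73.2 against 133 CPM (-0.86), IL32 at 13.7 against 23.7 CPM (-0.79) and CCL5, a T cell chemokine, at 0.797 against 9.71 CPM (-3.61 [-4.35, -2.95]). TNF was at 39.1 against 36.8 CPM and the neutrophil chemokine CXCL8 at 97.6 against 115 CPM. Of 21 interferon-stimulated genes, 9 were lower and none higher (median -0.46), among them ISG15, a ubiquitin-like modifier, at 145 against 315 CPM (-1.12), IFI6 at 29.2 against 50.8 CPM and IFIT1, which binds viral RNA, at 2.18 against 12.2 CPM. In the vehicle library 2 of 11 were lower (median -0.37), and ISG15 was at 91.8 against 122 CPM. The 21 NF-κB subunits and feedback genes had none past 1.5-fold in either direction in cytokine-treated cluster 0 (median -0.15), and of 17 other NF-κB targets 2 were lower and none higher, BIRC3, an inhibitor of apoptosis, at 22.9 against 47.6 CPM and the transcription factor IRF1 at 14.8 against 24.9 CPM. Of 16 class I antigen presentation genes only PSMB9, an immunoproteasome subunit, was past the limit, at 6.58 against 17.0 CPM. Among G1 cells 4 of 16 were past it, all lower, and the log2 ratios of TAP1, PSMB8 and HLA-B were -0.62, -0.63 and -0.63. HLA counts are uncertain because the HLA genes share sequence.

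Few cells of cluster 0 carried proliferation transcripts in the cytokine-treated library. The deposited phase calls placed 98.5% of its cells in G1, 1.55% in S and none in G2/M (0 of 1100 cells, with an exact upper limit of 0.335% and a floor of 3 cells at 0.273%), against 83.2%, 14.9% and 1.94% of the other cytokine-treated cells. In vehicle cluster 0 the calls were 49.1% G1, 43.8% S and 7.07% G2/M, against 35.2%, 45.3% and 19.6% of the other vehicle cells. MKI67, the Ki-67 antigen, was at 1.47 CPM in cytokine-treated cluster 0 cells against 17.0 CPM in the others and at 64.5 against 141 CPM with vehicle. TOP2A, the topoisomerase of replicated DNA, was at 0.168 CPM (4 UMIs) against 4.66 CPM and at 32.3 against 64.4 CPM. Of 35 S phase genes 24 were at least 1.5-fold lower in cytokine-treated cluster 0 and none higher (median -1.04), and of 30 G2 and M phase genes 16 were lower and none higher (median -0.66). With vehicle, 8 of 43 S phase genes (median -0.39) and 24 of 54 G2 and M phase genes (median -0.54) were lower and none higher. Phase calls of this kind are scored from S and G2/M genes, so limiting cells to G1 calls acts on these lists directly. Among G1 cells alone the S phase medians were 0.01 with cytokines and 0.09 with vehicle, and the G2 and M phase medians -0.01 and -0.11. In the cytokine-treated library MKI67 was highest in clusters 2 and 5, at 89.8 and 55.8 CPM, while clusters 1, 3 and 4 were at 1.07 to 1.82 CPM, close to cluster 0. In G1 cells S100A8 (2.21 with cytokines, 2.34 with vehicle), TDO2 (0.80 and 2.40), CLIC3 (1.17 and 0.91) and C1orf21 (-2.28 and -2.96) kept the directions of their log2 ratios.

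Some growth, stress and luminal genes were past the limit. Over all measured genes 1.24% were higher and 3.66% lower with cytokines, and 1.29% higher and 3.97% lower with vehicle. MYC targets and ribosome biogenesis genes had medians of 0.06 with cytokines (36 genes, 1 at least 1.5-fold higher) and 0.28 with vehicle (38 genes, 3 higher), and none was lower in either library. The unfolded protein response list stood at 0.20 with cytokines, where DDIT4, a stress-induced inhibitor of mTORC1, was the only member past the limit (136 against 85.7 CPM), and at 0.07 with vehicle. Among cytokine-treated G1 cells DDIT4 (0.52) was no longer past the limit. The chaperone HSPA5, also called BiP, was at 135 against 92.1 CPM and at 124 against 87.5 CPM. In the luminal and apocrine list none of 25 genes was higher with cytokines and 3 of 23 were with vehicle, CLU and AZGP1 among them, together with keratin 19 (KRT19), at 1130 against 699 CPM with vehicle and at 2151 against 1654 CPM with cytokines. In vehicle G1 cells none of these 3 was past the limit (KRT19 0.43, CLU 0.40, AZGP1 0.57), and 3 of 25 genes of the list were lower.

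Genes on chromosome 8 stood apart as a group. Over genes at CPM 20 or more, the median log2 ratio of cluster 0 over the other clusters was 0.28 for 142 chromosome 8 genes with cytokines and 0.27 for 164 genes with vehicle, and 93.7% and 84.8% of them lay above 0. Every other chromosome had a median between -0.04 and 0.05 in both libraries. The excess ran over most of the chromosome, with medians of 0.19 to 0.40 with cytokines and of 0.21 to 0.42 with vehicle in each 10 Mb bin from 40 Mb on. Before 40 Mb the bins held 1 to 10 genes and had medians of -0.04 to 0.10 with cytokines and of -0.09 to 0.24 with vehicle. A log2 ratio of 0.28 is below the 1.5-fold limit, and still 16 of the 107 genes higher with cytokines, 27 of the 118 higher with vehicle and 8 of the 30 higher in both lay on this chromosome, which held 272 of the 8655 genes measured with cytokines and 290 of the 9123 measured with vehicle. A further 5 of its genes were lower in each library. DCAF13, CLU and NAPRT among the 5 markers, and DECR1, FBXO32, BOP1, PUF60, VPS28 and SLC39A4 among the genes above, are chromosome 8 genes, whereas CLIC3 (chromosome 9), AZGP1 (chromosome 7), TDO2 (chromosome 4) and S100A8 and S100A9 (chromosome 1) are not.

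**Figure D3:**
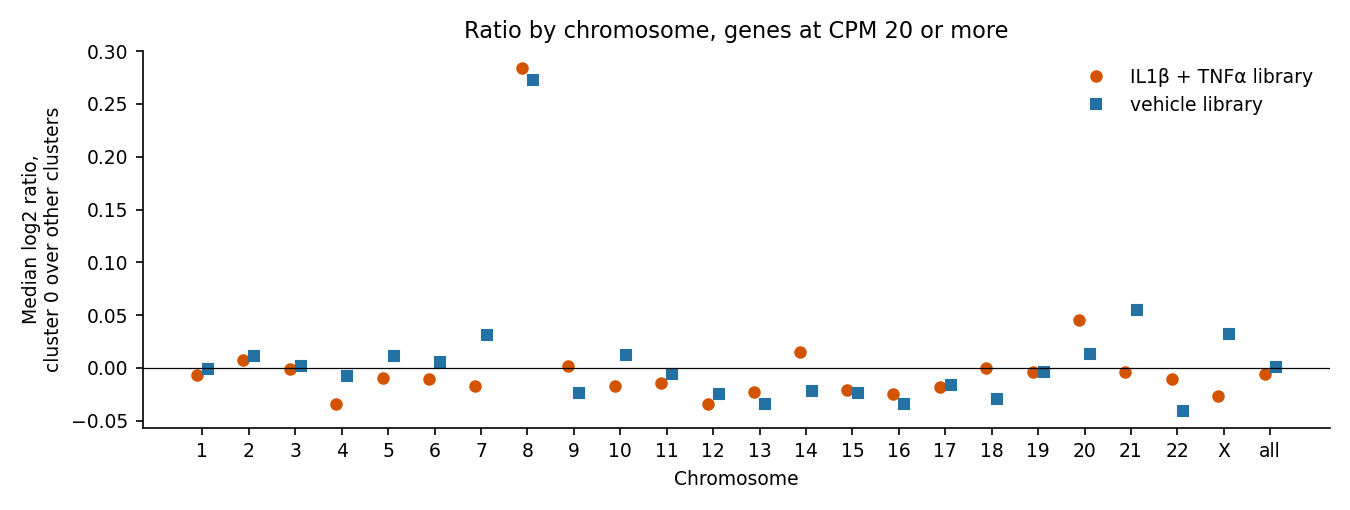
Median log2 ratio of cluster 0 over the other clusters by chromosome, for genes at CPM 20 or more, orange circles for the cytokine-treated and blue squares for the vehicle library. Chromosome 8 stood at 0.28 and 0.27, and all other chromosomes lay between -0.04 and 0.05.

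The share of a cell's UMIs that fell on chromosome 8 genes had 2 peaks over the cells of the other clusters in both libraries, and most of cluster 0 lay in the higher one. Its median was 3.20% in cytokine-treated cluster 0 cells (quartiles 3.02 and 3.35), against 2.35% in the other cytokine-treated cells, and 3.58% in vehicle cluster 0 cells (3.44 and 3.73), against 2.59% in the other vehicle cells. With a limit of 2.7%, chosen after the distribution was seen, 965 of 1100 cytokine-treated cluster 0 cells lay at or above it (87.7% [85.6, 89.6]), against 35.4% of the other cytokine-treated cells, and 277 of 283 vehicle cluster 0 cells (97.9% [95.4, 99.2]), against 45.1% of the other vehicle cells. Between 2.5% and 2.9% lay 64 cytokine-treated and 11 vehicle cells of cluster 0, and 112 cytokine-treated and 436 vehicle cells of the other clusters. With vehicle the fewest cells of the other clusters between the 2 peaks lay in the bin from 2.9% (14 cells), above the limit. Cluster 4 was as high, with 94.8% of its cytokine-treated and 96.9% of its vehicle cells at or above the limit, while cluster 1 had 16.1% and 11.7% and cluster 3 had 10.0% and 7.32%. Clusters 2 and 5 were mixed, with 55.3% and 63.4% of cytokine-treated and 48.8% and 62.4% of vehicle cells. DNA was not measured, so copies of the chromosome and expression per copy cannot be told apart.

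**Figure D4:**
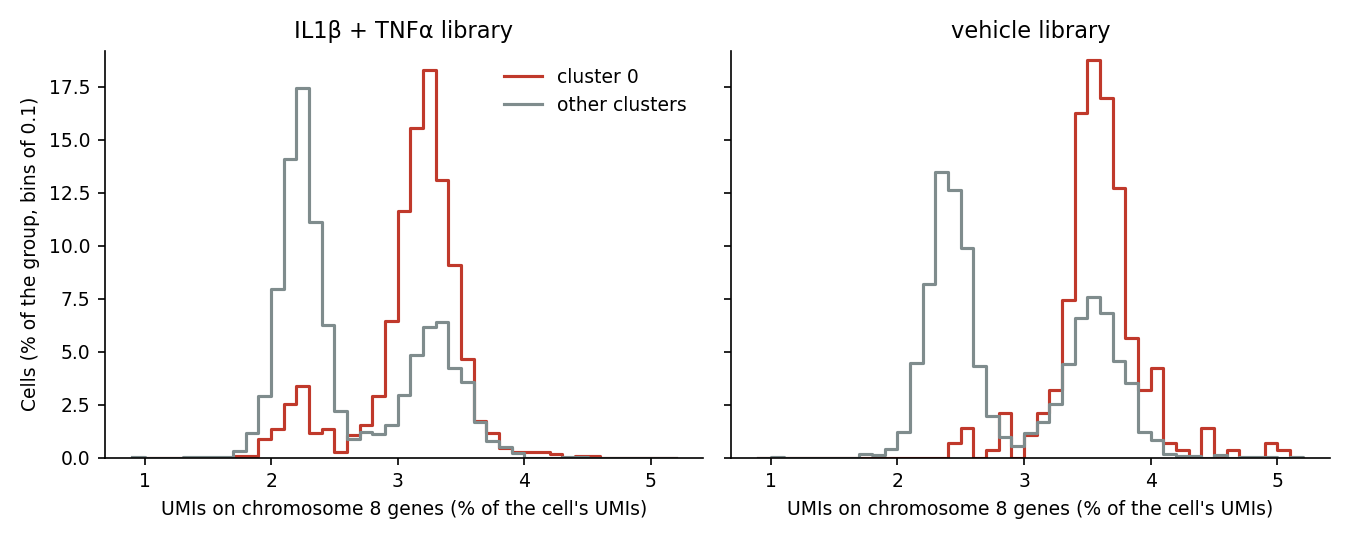
Distribution of the percent of a cell's UMIs on chromosome 8 genes in bins of 0.1, as percent of the cells of each group, for cluster 0 and for the other clusters of the cytokine-treated library (left) and the vehicle library (right). Cluster 0 formed 1 main peak around its medians of 3.20% with cytokines and 3.58% with vehicle, with a small second peak near the lower one of the other clusters with cytokines, and the other clusters formed 2 peaks.

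When cluster 0 and the other clusters were both limited to cells with 2.7% or more of their UMIs on chromosome 8 genes, a choice made after seeing the data, several contrasts were smaller. C1orf21 then had log2 ratios of -0.58 with cytokines and -0.80 with vehicle, CLIC3 of 0.52 and 0.53, and SLC39A4 of -0.06 and 0.12. SLC39A4 is a chromosome 8 gene, so the limit acts on its ratio directly and a smaller value follows in part by construction. TFF1, a secreted trefoil protein, turned round: it was at 553 CPM in cytokine-treated cluster 0 cells against 1289 CPM in all others (-1.22) but at 547 against 445 CPM among cells at or above the limit (0.30), and with vehicle at -0.63 in all cells and 0.51 in those. S100A8 (1.62 and 2.05), S100A9 (1.53 and 2.77) and TDO2 (0.83 and 1.71) remained higher in cluster 0 in both libraries.

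The 135 cytokine-treated cluster 0 cells below the limit differed from the 965 at or above it in several of these genes. C1orf21 was at 39.3 CPM below the limit and lower at or above it (log2 ratio 3.97), and its level below the limit was close to the 35.0 CPM of all other cytokine-treated cells. S100A7 was at 117 against 30.1 CPM (1.96), PI3 at 157 against 51.0 CPM (1.62), SAA1 at 597 against 233 CPM (1.35), S100A9 at 13290 against 8435 CPM (0.66) and S100A8 at 10436 against 6551 CPM (0.67). LTB (60.4 against 218 CPM), CLIC3 (63.0 against 109 CPM) and TDO2 (575 against 820 CPM) were lower below the limit. Both groups were at 98.5% and 98.4% G1 with median depths of 22699 and 20943 UMIs.

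Clusters 3 and 4 were compared with cluster 0 in more detail. Cluster 3 differed from cluster 0 in the fewest genes of any cluster in both libraries, with 257 genes at least 1.5-fold higher and 236 lower in cytokine-treated cluster 0 and 323 higher and 244 lower in vehicle cluster 0. Its chromosome 8 genes were lower, the median log2 ratio of cluster 0 over cluster 3 being 0.34 with cytokines and 0.46 with vehicle. S100A7, S100A8, S100A9, the mammary secretory gene MUCL1 and BBOX1 led cluster 0 over cluster 3 with cytokines, and C1orf21 was the lowest gene in both libraries. Cluster 4 was at the chromosome 8 level of cluster 0 in both libraries, with medians of -0.04 and -0.02 for cluster 0 over cluster 4. Clusters 2 and 5 were as near with cytokines (0.03 each), but not with vehicle (0.24 and 0.21). Cluster 4 differed in more genes, 611 higher and 287 lower with cytokines and 475 higher and 334 lower with vehicle, led by S100A7, SAA2, MMP13, SAA1, S100A8 and S100A9 with cytokines and by S100A9 and TDO2 with vehicle.

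A few genes were far more uneven among the cells of cluster 0 than genes of like level. In thinned cytokine-treated cells the variance of S100A7 was 150 times its mean, where the median of the 200 genes nearest in level was 1.05, and only 5.71% of these cells had a UMI of it (6.64% before thinning), against 3.56% of the other cytokine-treated cells. S100A8 stood at 134 (neighbours 2.08), S100A9 at 98.1, TFF1 at 48.1 (1.43), LTB at 26.8 (1.17), TDO2 at 18.0 (1.64) and SAA1 at 16.7 (1.26). LTB had a median of 0 and up to 106 UMIs in a thinned cell. In vehicle cluster 0 the cell cycle genes HMGB2 (14.6), CENPF (10.1) and UBE2C (9.86) were among the most uneven, with TFF1 at 8.96 and TDO2 at 6.33 (neighbours 1.05). MALAT1 and FTH1 were uneven in both libraries.

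Between conditions within cluster 0, 432 of 9176 measured genes were at least 2-fold higher in cytokine-treated than in vehicle cells (4.71%) and 763 were lower (8.32%). All measured genes together had a median of -0.19. Under TMM scaling this median lay 0.21 higher, with 592 higher and 505 lower genes. In that scaling 54.0% rather than 36.2% of the genes past the limit were higher. S100A8 was at 7052 CPM in cytokine-treated and 6.04 CPM in vehicle cluster 0 cells, a 1168-fold difference on 35 vehicle UMIs (log2 ratio 10.19 [9.71, 10.71]), and S100A9 at 9061 and 20.9 CPM (8.76 [8.50, 9.03]). TDO2 was at 788 CPM in cytokine-treated and 21.7 CPM in vehicle cells (5.18 [4.93, 5.44]), KMO at 325 and 13.6 CPM (4.57 [4.25, 4.91]) and KYNU at 77.8 and 2.93 CPM (4.73 [4.05, 5.51]). SAA1, LTB, CXCL8, CFB, CCL2, LCN2, PI3, S100A7 and TNF had no UMI in vehicle cluster 0 and were at least 542-fold, 382-fold, 188-fold, 179-fold, 141-fold, 134-fold, 125-fold, 79.8-fold and 75.6-fold higher with cytokines, each set against 3 UMIs, or 0.518 CPM. PIP, a prolactin-inducible secretory protein, was at 81.2 CPM with cytokines and had 3 UMIs with vehicle, a ratio of 157 (log2 7.29 [5.74, 9.57]), and DMBT1, a mucosal scavenger receptor protein, was at 215 and 2.24 CPM.

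**Figure D5:**
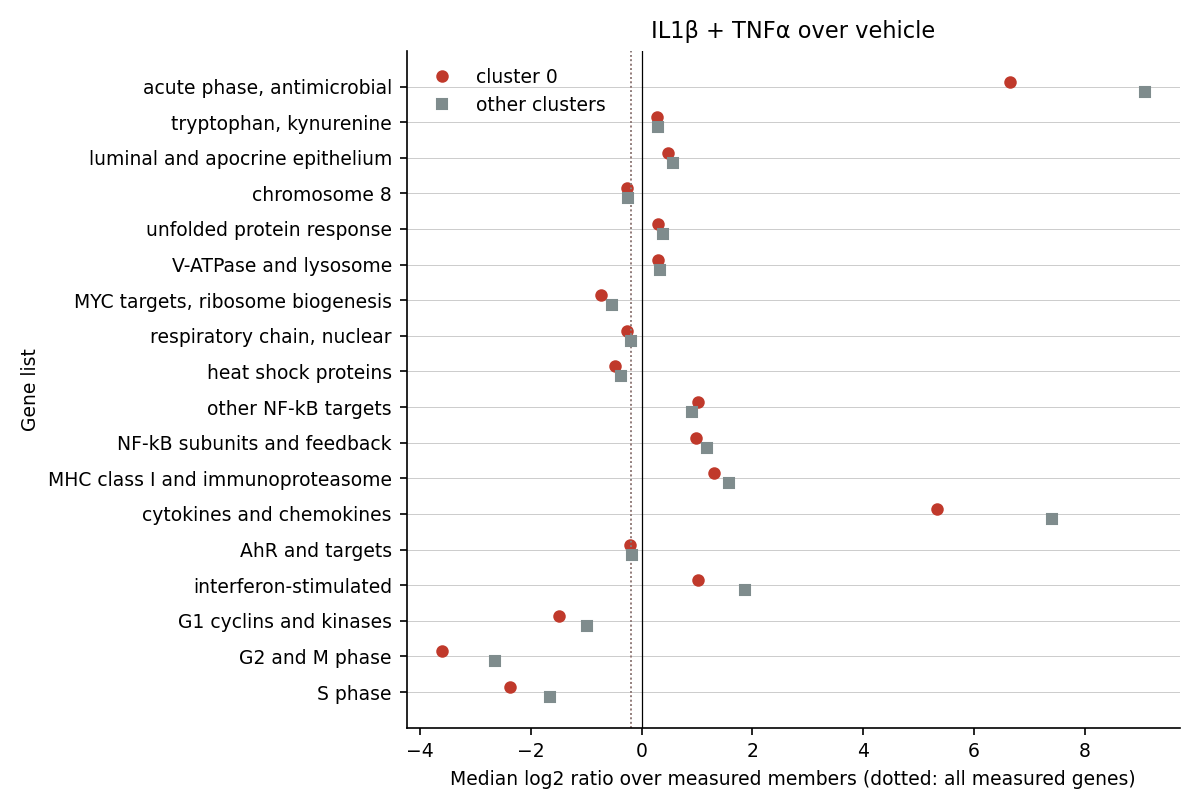
Median log2 ratio of cytokine-treated over vehicle cells for 18 gene lists, red circles for cluster 0 and grey squares for the other clusters, with genes at 0 in the vehicle cells set to 3 UMIs. In cluster 0 the acute phase list stood at 6.64, the cytokine list at 5.33, the S phase list at -2.38 and the G2 and M phase list at -3.61.

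By list, all 12 measured acute phase and antimicrobial genes of cluster 0 were at least 2-fold higher in cytokine-treated cells (median log2 ratio 6.64, with 9 genes at 0 UMIs in the vehicle cells set to 3 UMIs), as were 9 of 10 cytokines and chemokines (median 5.33, 6 genes at 0). Of 21 NF-κB subunits and feedback genes 10 were higher and none lower (median 0.98), among them NFKBIA, the inhibitor IκBα, at 1140 CPM in cytokine-treated and 98.7 CPM in vehicle cells, and ZC3H12A, an RNase that degrades inflammatory transcripts (3.70). Of 18 other NF-κB targets 9 were higher (median 1.01), such as SOD2, the mitochondrial superoxide dismutase, at 163 and 16.4 CPM. Class I antigen presentation (9 of 15 higher, median 1.30), interferon-stimulated genes (10 of 19, median 1.03) and the gp130, STAT3 and C/EBP list (3 of 6, median 1.28) lay on the same side, with none lower. The last of these includes CEBPD and CEBPB, transcription factors at 38.0 and 126 CPM in cytokine-treated and 5.52 and 32.1 CPM in vehicle cells. In the tryptophan list TDO2, KYNU and KMO were higher, while SLC7A5, a subunit of an amino acid transporter, was at 2.60 CPM in cytokine-treated and 13.1 CPM in vehicle cells (-2.33) and AFMID, the kynurenine formamidase, was lower too (-1.38). None of the 5 measured AhR genes was past 2-fold (median -0.21, close to that of all genes).

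Proliferation genes were lower in cytokine-treated cluster 0, with 39 of 42 S phase genes (median -2.38) and 45 of 50 G2 and M phase genes (median -3.61) at least 2-fold lower and none higher. MKI67 was at 1.47 CPM in cytokine-treated and 64.5 CPM in vehicle cells (-5.46 [-6.00, -4.96]), UBE2C, which feeds the anaphase-promoting complex, at 2.64 and 105 CPM (-5.31), and RRM2, the ribonucleotide reductase subunit of S phase, at 1.97 and 45.5 CPM (-4.53). The 2 groups differed in phase calls, 98.5% G1 with cytokines and 49.1% with vehicle. Among G1 cells alone 19 of 34 S phase genes (median -1.22) and 19 of 32 G2 and M phase genes (median -1.42) were at least 2-fold lower. MYC targets and ribosome biogenesis genes had a median of -0.74 with 10 of 38 lower, including the nucleolar genes LYAR (14.1 CPM with cytokines, 46.2 CPM with vehicle) and DKC1 (101 and 268 CPM). PHGDH, the first enzyme of serine synthesis, was at 17.6 CPM in cytokine-treated and 80.2 CPM in vehicle cells, IL1R1, the receptor for IL1β, at 34.8 and 105 CPM, and the metallothionein MT2A at 365 and 1177 CPM.

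The cytokine ratio of cluster 0 was then set against that of the other clusters. Of 9107 genes with enough UMIs in all 4 sums, 125 had a ratio at least 1.5-fold higher in cluster 0 (1.37%) and 269 a lower one (2.95%). RARRES1, a retinoid-induced membrane protein, was at 205 CPM in cytokine-treated and 6.38 CPM in vehicle cells of cluster 0 (log2 ratio 5.01), and at 97.5 and 8.28 CPM in the other clusters (3.56), a difference of 1.45 [0.96, 1.93]. SLPI was at 347 and 42.4 CPM in cluster 0 (3.03) and at 214 and 66.8 CPM in the others (1.68), a difference of 1.35 [1.16, 1.55]. CSTB, the protease inhibitor cystatin B, was at 2213 and 387 CPM in cluster 0 and at 1205 and 375 CPM in the others, a difference of 0.83 [0.77, 0.90]. The difference was -0.34 [-0.95, 0.28] for S100A8 and -0.19 [-0.50, 0.12] for S100A9, with 0 inside both intervals. The value for S100A9 depends on 1 cell, which held 109 of the 261 S100A9 UMIs of the other vehicle cells. The interval does not cover this, so the difference of S100A9 is uncertain. TDO2 had the smaller ratio in cluster 0 (5.18, against 5.81 in the others, difference -0.63 [-0.92, -0.34]). Among G1 cells this difference was -1.60 and the ratio in cluster 0 was 4.32, with the vehicle value resting on few cells. In G1 cells the difference of S100A9 was 0.44. In the lower direction 20 of 37 S phase and 13 of 33 G2 and M phase genes were past the limit, led by GTSE1 (-2.79), DTL (-2.72), UBE2C (-2.67) and MKI67 (-2.40). Among G1 cells, GTSE1 had log2 ratios of cluster 0 over the other clusters of -0.80 with cytokines and -0.91 with vehicle. They were -0.48 and -0.49 for DTL, -0.48 and -0.12 for UBE2C, and -1.27 and -1.14 for MKI67. The differences of these genes were thus far smaller in size among G1 cells. ISG15 had a log2 ratio of 0.66 in cluster 0 and of 1.37 in the others (difference -0.71 [-0.85, -0.58]).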

How the data were processed

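The authors deposited whole UMI counts of 16251 genes in each cell, with no normalization. Cell Ranger 3.1.0, Seurat 4.0.4 and GRCh38 are named as tools and build. They also deposited, per cell, the percent of mitochondrial UMIs, a phase call and a cluster number. These names come from the submitters' processing notes. By the methods, the authors kept cells below 50000 UMIs and 15% mitochondrial UMIs that had between 3000 and 5000 genes, and dropped genes found in under 10 cells. The cell table held to all of these limits, while 328 of its genes were seen in under 10 cells. How the clusters were made is not given in the sources used here, and doublets were neither called nor removed here.

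UMIs were summed per gene over cluster 0 and over the other cells of each library and divided by the total (CPM). Ratios have exact conditional binomial and shares exact Clopper-Pearson 95% intervals. A gene was measured where either sum reached CPM 5. Genes counted as past the limit at 1.5-fold between clusters, at 2-fold between conditions and at a 1.5-fold difference of ratios (20 UMIs or more in each of 4 sums), with the interval on the same side. No test was made. A gene at 0 was set to 3 UMIs. For shares and spread cells were thinned to 15000 UMIs, which left out 32 cytokine-treated and 16 vehicle cells of cluster 0 and 98 and 220 other cells. Positions came from GENCODE v44 by symbol for 13749 genes, 330 of them through older symbols.

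Named genes were the 5 markers, a fixed set around TDO2, S100A8 and S100A9, the 12 highest and 12 lowest ratios shared by both libraries and the 6 of each library, the 12 highest and 12 lowest between conditions, the 8 of each direction in the difference, the 8 most uneven per library, at CPM 20 or more, and up to 4 members of each list described. MUCL1, MMP13 and further list members were named after their values were seen. The members and lists were chosen with earlier results of these data known. Alternatives used TMM (edgeR 4.0.16) and median of ratios (DESeq2 1.42.0) scaling, other CPM and fold limits, totals without ribosomal and mitochondrial genes, G1 cells, cells under 10% mitochondrial UMIs, thinned sums and unweighted means of the other clusters. Calculations used Python 3.11.15, numpy 2.4.6, scipy 1.17.1, pandas 2.3.3 and R 4.3.3 and were tested on simulated data.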

Additional observations from a re-analysis of the deposited data

Results flagged for a closer look

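SLPI was at 347 CPM in cytokine-treated cluster 0 cells and at 214 CPM in the other cytokine-treated cells, and at 42.4 CPM in vehicle cluster 0 cells and at 66.8 CPM in the other vehicle cells. It was past 1.5-fold in opposite directions in the 2 libraries, and its log2 ratio of cluster 0 over the other clusters was 1.35 higher with cytokines than with vehicle. With 1 library per condition this difference was not tested. Among G1 cells the log2 ratios of SLPI were 0.59 with cytokines and -0.56 with vehicle, the second no longer past 1.5-fold.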

How the results depend on the processing

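No paired analysis was possible because each condition was 1 library. With 1 library per condition no replicate could be left out either. Between clusters of cytokine-treated cells, the 107 higher genes became 230 with a CPM limit of 1, 53 with a limit of 20 and 28 at 2-fold, and the 317 lower genes became 686, 92 and 142, and 173 in G1 cells alone, 154 of them shared. Between clusters of vehicle cells, the 118 higher genes became 195 with a CPM limit of 1, 43 with a limit of 20 and 10 at 2-fold. They became 195 in G1 cells (63 shared). Among cells with 2.7% or more of their UMIs on chromosome 8 genes (added after seeing the data) they became 184 (67 shared). With cytokines the same setting gave 134 higher genes, 48 of them shared with the 107. The 362 lower genes with vehicle became 119 at CPM 20, 72 at 2-fold and 232 in G1 cells (100 shared). Between conditions the 432 higher genes became 701 at CPM 1, 226 at CPM 20 and 866 at 1.5-fold, and the 763 lower genes became 505 under both TMM and median of ratios, 1166, 326 and 1979. For the difference of ratios the 125 higher genes became 33 at CPM 20, 11 at 2-fold and 77 in G1 cells (23 shared). The 269 lower genes became 109 at CPM 20, 84 at 2-fold and 183 in G1 cells (77 shared). The chromosome 8 median with cytokines became 0.22 at CPM 5. Other limits of CPM and fold change the count by construction; for the G1 settings the cause was not tested.

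In G1 cells these log2 ratios turned round: with cytokines HMGB2 (0.12); with vehicle HIST2H2AC (0.069), RAD51AP1 (0.045), CDKN2D (0.0060) and H2AFX (0.13); and the differences of RRM2 (0.50), HMGB2 (0.30), GTSE1 (0.12), CDKN2D (-0.25) and E2F1 (0.22). Among cells with 2.7% or more of their UMIs on chromosome 8 genes TFF1 (0.30 with cytokines, 0.51 with vehicle) and PLA2G2A (0.30 with vehicle) did. The cause was not tested. Only ratios past the limit were counted as turned round. Of the other log2 ratios, 6507 stayed within their counting interval and 1183 moved outside it. Among the latter, a ratio not past the limit may have changed direction, as the S100A9 difference did in G1 cells. Of the shares of cells with a UMI, 44 stayed within their interval and 148 moved outside it. Their settings were another thinning depth, no thinning and a higher UMI limit, which change a share by construction. Depth limits vehicle cluster 0 most, where 3 UMIs are 0.518 CPM. That floor sets the medians of the acute phase and cytokine lists, which are therefore not comparable with those of the other vehicle cells, where 3 UMIs are 0.0568 CPM.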
